A study of Mus musculus with 27 samples.

Results

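Untreated smooth muscle (SM) cells were compared with untreated hematopoietic progenitor (HP) cells, the vascular and the blood product of the same differentiation of mouse embryonic stem cells (ESCs), over all genes on the array. The members are the 5 arrays of these cells, 3 of SM and 2 of HP, among 27 arrays in 13 groups. The comparison asks which genes separate the end products that a common FLK1+ precursor gave rise to in one culture. ESCs carrying a doxycycline (DOX)-inducible cassette for dominant-negative FOS (dnFOS, a peptide that blocks DNA binding of the AP-1 factors) were differentiated as embryoid bodies for 3.75 days. FLK1+ cells were then purified and placed in blast culture, and the populations were sorted by flow cytometry at day 2. HP cells were the KIT+TIE2−CD41+ fraction, and the gate of the SM cells was not given in the sources used here. Neither group received DOX (0 days), so dnFOS was carried but not induced in either. The DOX-treated SM and HP cells used below received 1 µg/ml for 2 days. The number of ESC clones behind the arrays was not stated, and nothing said that arrays of a group came from separate differentiations, so the p-values measure the spread between arrays, which may be technical.

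Vascular smooth muscle cells contract through actin, myosin and their regulatory proteins, lay down collagen-rich matrix and hold to it through integrins, and the SRF coactivator myocardin drives their contractile genes. Hematopoietic progenitors leave the hemogenic endothelium as floating cells under RUNX1, GFI1B, MYB and PU.1 (Spi1), and they take on the signalling and cytoskeletal proteins of white blood cells. In ESC cultures the first hemogenic endothelium (HE1, KIT+TIE2+CD41−) passes through a committed, still adherent stage (HE2, KIT+TIE2+CD41+) before HP cells are released.

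Levels are given below as log2 of the processed signal after the array's 75th percentile was subtracted, so a level of 0 is the 75th percentile of that array, and differences are SM minus HP. Of the untreated SM arrays, replicate 2 stood apart, and a DOX-treated SM array did so in some of the same genes (below). On SM replicate 2, 89.6% of probes were well above background, against 55.8 to 59.4% on the other SM arrays and 62.5 to 66.1% on the HP arrays. It correlated with HP replicate 2 (Pearson r = 0.921 across 25269 genes, which are not independent) as closely as with SM replicate 3 (0.919) and slightly less than with SM replicate 1 (0.933), while SM replicates 1 and 3 gave 0.96 and the HP arrays 0.968. The sum of linear signals of 21 endothelial markers was 44.9 and 37.4 on SM replicates 1 and 3, 536 on SM replicate 2, and 171 and 310 on the HP arrays. In 18 of these 21 genes (85.7%), SM replicate 2 lay at least 2-fold above both other SM arrays, which held for 19% of all genes tested. None of the 21 was below background on every array of either group. Cdh5, the endothelial cadherin, had levels of -1.12, 4.34 and -0.41 in the SM arrays and 3.26 and 3.73 in the HP arrays. SM replicate 2 and HP replicate 2 were hybridised on slide 3, SM replicate 3 and HP replicate 1 on slide 1, and SM replicate 1 on slide 4. SM replicate 2 also lay at least 2-fold above both other SM arrays in 61.1% of megakaryocyte and platelet genes. It did so in 47.1% of leukocyte signalling genes and 39.4% of hematopoietic transcription factors, but in 21.1% of myeloid effectors and 20% of cytokine and chemokine receptors. The part of the endothelial signal and of these signals in the results below was not tested. Calls are given without SM replicate 2 where that array decided them.

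Of 25269 genes and transcripts with signal in SM or HP, 1643 were called higher in SM (6.5%) and 840 higher in HP (3.32%), at a limma adjusted p below 0.05 and at least a 2-fold difference. The median called difference was 3.13 for SM genes and -2.93 for HP genes, and the median over all genes tested was -0.14. SM genes therefore made up 66.2% of the calls, but 53.2% (1027 and 903) after scaling to the median of each array, which moved the median of all genes to -0.49, and 56% (1570 and 1235) in the authors' processed values. The arrays of the groups did not overlap in any of the 1643 SM genes and in 838 of the 840 HP genes, against 15.6% and 16% of all genes tested. Each slide that held both cell types gave a difference of its own. At least a 2-fold difference in the called direction was seen on both slides for 1588 SM genes and 790 HP genes, against 10.3% and 6.01% of all genes tested. The calls were made on these same arrays, so both counts describe the called genes and support nothing further. With the slide as a fixed block 2255 and 1337 genes were called, and as a random block 2435 and 1480. No HP array was above background for 297 of the SM genes, and no SM array for 67 of the HP genes. For these the fold change is given as a lower bound, and log2 differences printed for them under another setting or probe are fitted values and no bounds. In the 10 SM and 4 HP genes of this kind named below, the fitted log2 difference was nearer to 0 than the bound after normexp background correction (1.00 to 3.50 in the SM genes, -4.74 to -3.55 in the HP genes) and in the authors' processed values (1.19 to 4.22 and -6.15 to -4.68), and not after quantile normalization or median scaling.

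Without SM replicate 2, 1531 genes were called for SM and 974 for HP, of which 1392 and 748 were shared with the full set. HP replicate 1 mattered more for the SM calls, since 673 genes were called for SM and 424 for HP without it, with the HP group then resting on 1 array that is assumed to vary like the other groups. Across the 1643 SM genes the median level was -3.17 on HP replicate 1 and -2.48 on HP replicate 2.

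The markers used for sorting were read first. Kit, the stem cell factor receptor, stood at -1.38, 0.65 and -0.45 in the SM arrays and at 4.89 and 4.80 in the HP arrays. No SM array reached an HP array, and the difference was -5.23 ± 0.67 (SE), or 37.6-fold higher in HP (adjusted p = 5.04e-05). Itga2b, which encodes CD41, was at -1.13, -1.10 and -1.08 in SM and 3.25 and 3.01 in HP. The groups were again apart (log2 difference -4.23 ± 1.01 (SE), adjusted p = 0.00879), although with 1 HP array left the adjusted p was 0.0999 without HP replicate 1 and 0.0627 without HP replicate 2. Tek, which encodes TIE2 and was absent from the surface of the sorted HP cells, had levels of -1.36, 0.70 and -0.95 in SM and 0.58 and -1.42 in HP. SM replicate 2 and HP replicate 1 were the high arrays and the groups overlapped (difference -0.12 ± 1.12, adjusted p = 0.985).

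Of the 7 smooth muscle markers listed for this comparison, 3 were called higher in SM. Acta2, smooth muscle α-actin, had levels of 9.79, 9.84 and 9.10 in SM and 5.03 and 6.71 in HP. All SM arrays lay above both HP arrays (log2 difference 3.70 ± 0.60 (SE), adjusted p = 0.000364), a 13-fold difference. Tagln (SM22α, an actin-binding protein) was at 9.26, 9.97 and 8.48 in SM and 3.69 and 7.10 in HP (log2 difference 3.84 ± 0.85 (SE), adjusted p = 0.00526). Cnn1, calponin, was at 4.44, 5.27 and 4.77 and -1.95 and 2.04 (log2 difference 4.78 ± 1.08 (SE), adjusted p = 0.00623). In both genes HP replicate 2 carried far more signal than HP replicate 1, and without HP replicate 1 neither call held (adjusted p 0.256 and 0.268). The other 4 markers were not called. Smtn, smoothelin, overlapped between the groups at 2.95, 4.07 and 3.42 in SM and 3.41 and 4.04 in HP, with a difference of -0.25 ± 0.50. Mylk, the kinase that starts contraction, was at -4.96, -3.17 and -6.09 and -2.25 and -2.48, lower on every SM array than on either HP array, and did not pass the test (log2 difference -2.38 ± 1.05 (SE), adjusted p = 0.219). Des, desmin, had a difference of 1.72 (adjusted p = 0.165). Myh11, the heavy chain of mature smooth muscle myosin, was not above background in either HP array and was not called (adjusted p = 0.088). Over the whole list of contractile genes 9 of 20 tested were called for SM and none for HP, with a median of 2.06, while quantile normalization gave 12 and 1. Actg2, enteric γ-actin, had the largest difference among them: its SM arrays read 3.35, 0.76 and 3.45 and its HP arrays -3.01 and -2.49 (log2 difference 5.27 ± 0.98 (SE), adjusted p = 0.00129).

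In the markers of hematopoietic progenitors 7 of 8 tested were called higher in HP and none in SM. Kit and Itga2b, which encode proteins the HP cells were sorted for, were among the 7, so the sort favoured these calls. The calls of Itga2b, Gata1 and Ptprc did not hold under every alternative. The SM label rested on 3 of 7, with smoothelin, desmin, Mylk and Myh11 short of a call. The SM gate was not given, so the marker counts of SM and HP are not a like comparison. Myh11 was called for SM under 2 of 18 alternatives and Mylk for HP under 3 of 18. RNA of a sorted population does not tell fewer cells of a type from less RNA per cell.

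**Figure D1:**
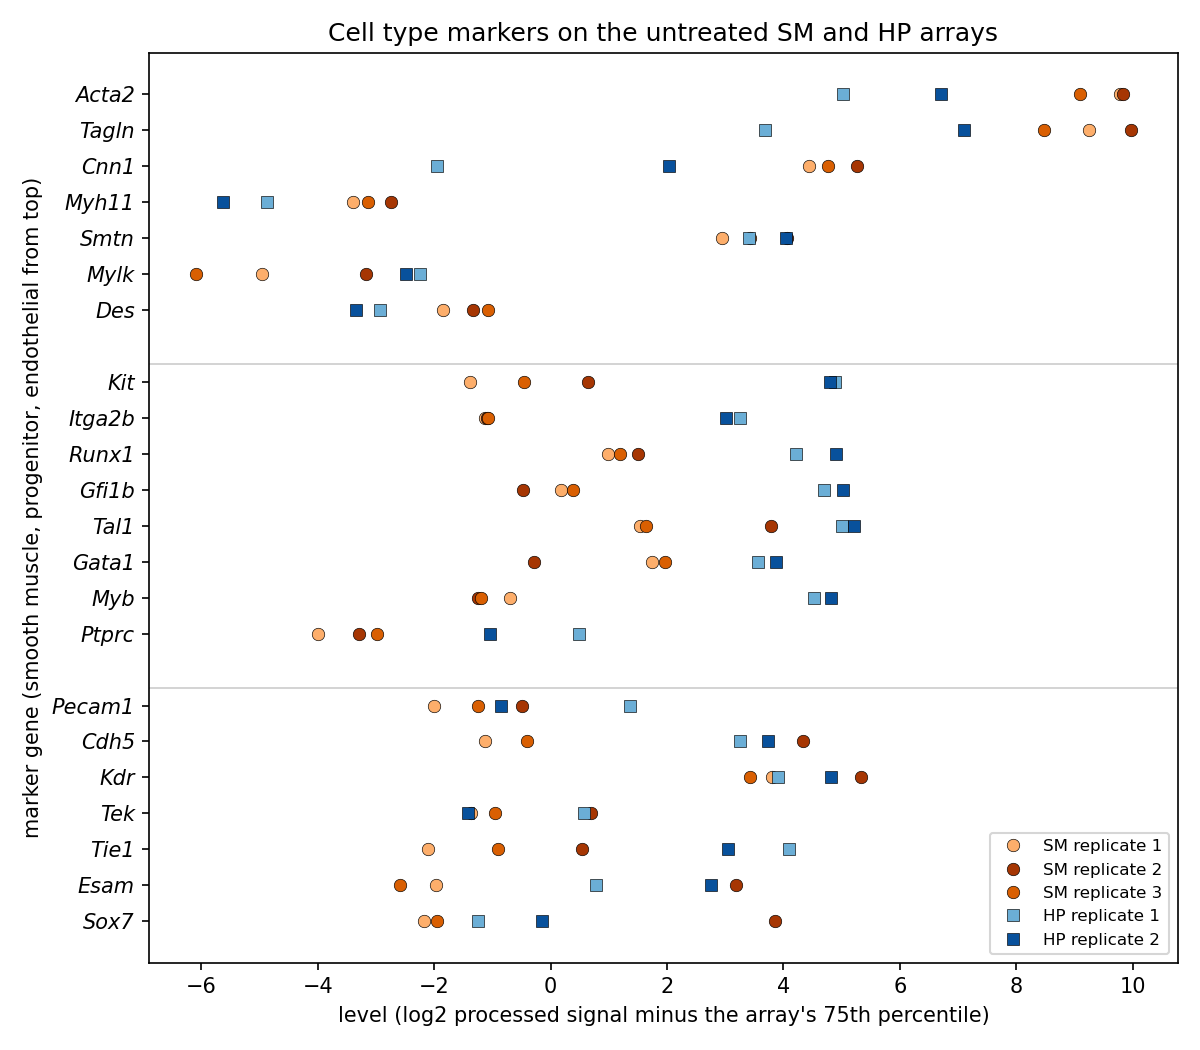
Level of the fixed smooth muscle, hematopoietic progenitor and endothelial markers on each of the 5 arrays (horizontal axis, log2 of processed signal, less the 75th percentile of its array; 1 row per gene; circles SM replicates 1, 2 and 3, squares HP replicates 1 and 2). Acta2, Tagln and Cnn1 lie to the right in SM, Kit, Gfi1b and Myb to the right in HP, and SM replicate 2 lies apart from the other SM arrays in Cdh5, Esam and Sox7.

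The promoters of these genes are shown because the same short motifs were counted over all called genes further on. Each sequence is the 250 bases before the start site, 5′ to 3′ on the strand of the gene, from RefSeq for GRCm38.p6. Capitals mark an exact match, on either strand, to a motif spelled out with the counts. Near matches, such as ccctatatgg in the Acta2 window against the CArG box of SRF, stayed in lower case.
Acta2, chr19:34255374-34255623, minus strand: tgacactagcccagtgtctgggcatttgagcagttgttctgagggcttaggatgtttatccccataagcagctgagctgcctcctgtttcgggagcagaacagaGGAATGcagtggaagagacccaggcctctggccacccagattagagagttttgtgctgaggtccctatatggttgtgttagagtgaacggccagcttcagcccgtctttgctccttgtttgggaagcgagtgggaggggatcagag
Itga2b, chr11:102469884-102470133, minus strand: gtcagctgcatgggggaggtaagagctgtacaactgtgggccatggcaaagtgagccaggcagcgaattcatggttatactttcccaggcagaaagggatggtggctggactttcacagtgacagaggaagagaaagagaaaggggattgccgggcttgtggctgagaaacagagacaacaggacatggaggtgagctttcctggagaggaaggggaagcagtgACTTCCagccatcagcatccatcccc
The Acta2 window holds GGAATG, the letters bound by TEAD factors, 146 bases before the start site. The Itga2b window holds GGAAGT, the letters of ETS factors, on the other strand 26 bases before the start site.

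Regulators of smooth muscle and mesenchyme followed the contractile genes. Of 21 tested, 12 were called higher in SM and 1 higher in HP (2 in HP after quantile normalization), with a median of 3.09 (1.77 after normexp background correction). Myocd, myocardin, had levels of -0.88, -0.29 and -0.77 in SM and -6.07 and -3.51 in HP, above background on 1 HP array. Every SM array was higher (log2 difference 4.15 ± 0.62 (SE), adjusted p = 0.000174). Srf, its DNA-binding partner, was not called, at 2.97, 3.89 and 2.30 in SM and 2.46 and 3.40 in HP (difference 0.12 ± 0.76). The mesoderm factors Hand1 and Gata6 were called. Hand1 was at 4.20, 3.48 and 4.88 in SM and -1.74 and -0.36 in HP, a difference of 5.24 ± 0.77 (adjusted p = 0.000159). Gata6 read 2.34, 2.72 and 2.59 in SM and -1.40 and -0.63 in HP (log2 difference 3.57 ± 0.55 (SE), adjusted p = 0.000249). For both, the lowest SM array was above the highest HP array by more than the range within either group.

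Factors of epithelial-to-mesenchymal transition from the SNAI and TWIST families were called higher in SM, whereas Zeb1 and Zeb2 were not called (differences of 0.83 and -0.75, adjusted p 0.159 and 0.624). Snai2 was 38.4-fold, Twist1 14.1-fold and Twist2 40.1-fold higher in SM (adjusted p 0.000426, 3.5e-05 and 0.000246). Twist1 was the most even of them, at 0.77, 0.95 and 0.16 in SM and -2.92 and -3.47 in HP. Wt1, a factor of the mesothelium, was 18.8-fold higher (adjusted p = 0.000286). Mef2c, a factor of both muscle and blood, went the other way, at -3.16, -1.81 and -3.40 in SM and 0.78 and -0.24 in HP. Both HP arrays were higher (log2 difference -3.06 ± 0.89 (SE), adjusted p = 0.032), but the call did not hold without SM replicate 1 or 3 or either HP array (adjusted p 0.0844 to 0.311).

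Of 33 matrix genes tested 23 were called higher in SM and none in HP, and the 11 collagens among them had a median difference of 3.93 (2.37 after normexp background correction). Col3a1, a fibrillar collagen, had levels of 4.68, 2.39 and 5.70 in SM and -1.17 and -1.27 in HP. The HP arrays were close to each other while SM replicate 2 was the lowest of its group, and the difference was 5.48 ± 0.98, or 44.6-fold (adjusted p = 0.000913). Fn1, fibronectin, was among the smaller differences at 8.41, 8.09 and 7.30 in SM and 4.91 and 6.24 in HP (log2 difference 2.36 ± 0.61 (SE), adjusted p = 0.0153), and fell below the threshold without SM replicate 1 (0.0666), after median scaling (0.109) or without HP replicate 1 (0.306). Postn, periostin, reached 4.38 ± 0.89 (adjusted p = 0.00278, and 0.0932 without HP replicate 1).

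Several matrix genes had no HP array above background. Lum, lumican, a collagen-binding proteoglycan, was at 3.00, -3.05 and 2.38 in SM and was at least 57.7-fold higher there (adjusted p = 0.0162). SM replicate 2 was far below the other SM arrays in this gene, and the call was lost without SM replicate 1 (0.0812), SM replicate 3 (0.0695) or HP replicate 2 (0.255), and after normexp background correction (0.0554), quantile normalization (0.0826) or in the authors' processed values (0.0885). Tnc, tenascin C, was more even, at -0.31, 0.55 and -1.12, and at least 22.7-fold higher in SM (adjusted p = 5.59e-05). Its fitted log2 difference fell to 2.15 under the alternatives. Eln, which encodes elastin, a protein of mature vessel walls, did not separate the groups, at -4.05, -1.94 and -3.04 in SM and -3.40 and -3.75 in HP. Lox, the enzyme that crosslinks collagen and elastin, was above background on 2 SM arrays and 1 HP array and was not tested.

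Integrins were called on both sides. Of 9 matrix-binding integrin genes 5 were called for SM (3 after median scaling) and none for HP, and of 9 leukocyte and platelet integrin genes 6 were called for HP and none for SM. Itgb5, a vitronectin receptor chain, had levels of 4.81, 3.77 and 5.06 in SM and 0.26 and 1.14 in HP (log2 difference 3.85 ± 0.57 (SE), adjusted p = 0.000187). Itga8, typical of smooth muscle, was 18.1-fold higher in SM (adjusted p = 0.000621). It was not above background on every array of both groups, and its log2 difference lay between 2.42 and 4.95 under the alternatives. On the blood side Itgb3, the platelet partner of CD41, was at 0.28, 1.25 and 0.72 in SM and 5.69 and 6.43 in HP (log2 difference -5.31 ± 0.74 (SE), adjusted p = 9.81e-05). Itga4, the chain that holds progenitors to VCAM1, was 14-fold higher in HP (adjusted p = 5.59e-05). Itgam, CD11b of myeloid cells, was higher on every SM array, at 4.09, 5.05 and 5.10 in SM and 3.69 and 3.20 in HP, and was not called (log2 difference 1.30 ± 0.77 (SE), adjusted p = 0.454, and -0.13 with the mean of its probes), nor was Itgb2, its partner (log2 difference -1.77 ± 0.74 (SE), adjusted p = 0.186). The common chain Itgb1 had levels of 3.82, 2.99 and 4.39 and 3.34 and 2.20, and its difference of 0.96 ± 0.57 was not called.

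**Figure D2:**
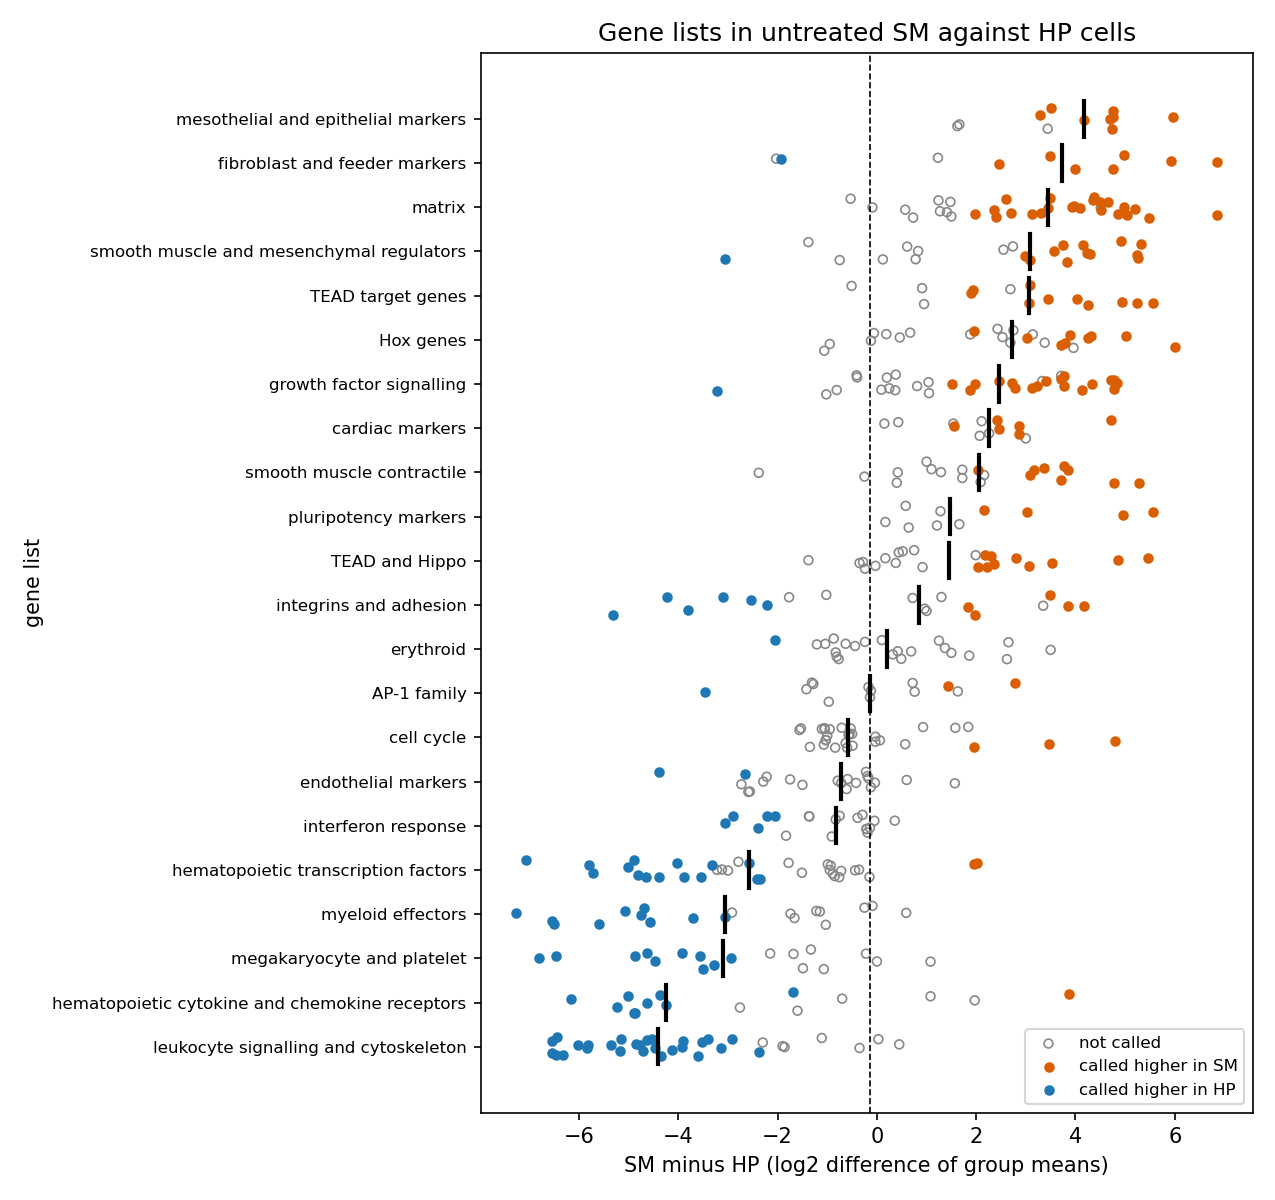
Difference between SM and HP (horizontal axis, log2, SM minus HP) of every tested member of 22 gene lists, 1 point per gene; filled orange points were called higher in SM, filled blue points higher in HP and open grey points were not called, and the bar is the list's median. The dashed line is the median over all 25269 genes tested (-0.14); leukocyte signalling genes lie to the left, matrix and TEAD target genes to the right.

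Ligands of mesenchymal and vascular growth were largely on the SM side, with 11 of 17 called higher in SM and 1 in HP. Bmp4, the mesoderm-inducing ligand, was at 6.95, 5.97 and 7.30 in SM and 3.30 and 3.72 in HP. Every SM array was higher (log2 difference 3.23 ± 0.51 (SE), adjusted p = 0.000312), or 9.4-fold, but the mean of all its probes gave 1.80 and no call (0.102). Tgfb2 was at 4.89, 5.34 and 5.54 in SM and -0.73 and 1.69 in HP, a 27.5-fold difference with adjusted p = 2.4e-05. Its relative Tgfb1 was the ligand called for HP, at 0.81, -0.33 and 1.61 in SM and 3.95 and 3.87 in HP (log2 difference -3.22 ± 0.74 (SE), adjusted p = 0.00674). The same family was therefore read in opposite directions without overlap of arrays, and Tgfb1 lost its call when only 1 HP array remained (0.0564 and 0.0784). Of the receptors 7 of 16 were called for SM (3 after median scaling) and none for HP. Pdgfra and Pdgfrb, the platelet-derived growth factor receptors of mesenchyme and mural cells, were 26.2-fold and 13.6-fold higher in SM (adjusted p 2.57e-05 and 0.00135).

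Ligand and receptor RNA were higher in opposite populations for KIT and in the same population for CXCR4. RNA of a population does not show whether the same cells held both. Kitl, the stem cell factor that binds KIT, was at -0.58, 0.59 and -0.71 in SM and -4.20 and -3.68 in HP. All SM arrays were higher (log2 difference 3.71 ± 0.78 (SE), adjusted p = 0.00368), while Kit itself was higher in HP. Cxcl12, a chemokine of stromal cells, was at 6.20, 3.24 and 5.97 in SM and 0.35 and 0.38 in HP (log2 difference 4.78 ± 1.20 (SE), adjusted p = 0.0125). Its receptor Cxcr4 was not above background on either HP array, stood at -2.42, -2.09 and -2.29 in SM, and was at least 6.99-fold higher in SM (adjusted p = 0.00288). Cxcr4 was not called after normexp background correction (log2 difference 1.00, 0.424) or in the authors' processed values (0.0682). The Kitl and Cxcr4 calls did not hold without HP replicate 1 (0.0701 and 0.0769), and Cxcl12 lost its call without SM replicate 1 or 3 or either HP array (0.052 to 0.111).

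The study followed AP-1 and TEAD factors in these cells. In the AP-1 family 2 of 13 genes were called for SM and 1 for HP, with a median of -0.14, the same as all genes tested (1 and 1 after median scaling, 0.01 in the authors' processed values). Jun, the main partner of FOS, was at 5.70, 6.78 and 5.80 in SM and 6.14 and 6.28 in HP. The groups overlapped (difference -0.12 ± 0.50), as they did for Fos itself (difference 0.72 ± 0.74, adjusted p = 0.774). Jund was the lower in all SM arrays, at 5.30, 6.61 and 6.75 against 7.50 and 7.50 in HP, and did not pass the test (log2 difference -1.28 ± 0.62 (SE), adjusted p = 0.287).

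The 3 AP-1 genes that were called were less common members of the family. Jdp2, a repressor that dimerises with JUN, had levels of 3.35, 3.77 and 4.22 in SM and 0.84 and 1.14 in HP. The arrays were well apart (log2 difference 2.79 ± 0.37 (SE), adjusted p = 6.02e-05). Batf, a leucine zipper factor of lymphoid and myeloid cells, was at -5.47, -3.35 and -4.40 in SM, above background on 1 array, and at -1.05 and -0.84 in HP (log2 difference -3.46 ± 0.60 (SE), adjusted p = 0.000634). Fosl2 had the smallest called difference of the 3, 1.44 ± 0.40 (adjusted p = 0.0264), which was not called without SM replicate 1 (0.0936), SM replicate 2 (0.0598), after median scaling (0.366) or without HP replicate 1 (0.421).

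Among TEAD factors and their coactivators 7 of 9 were called higher in SM (5 after median scaling, which ended the calls of Tead2 and Tead3) and none in HP. Tead1 was at 3.65, 4.98 and 4.60 in SM and 0.26 and 1.53 in HP (log2 difference 3.52 ± 0.65 (SE), adjusted p = 0.00115). Yap1, the coactivator that Hippo kinases keep out of the nucleus, was at 5.20, 5.31 and 4.67 in SM and 1.40 and 2.59 in HP. No HP array reached an SM array (log2 difference 3.06 ± 0.51 (SE), adjusted p = 0.0005), an 8.36-fold difference. Tead2, Tead3 and Tead4 were 4.08-fold, 5.08-fold and 7.01-fold higher in SM (adjusted p 0.00812, 0.00307 and 0.00216). Without HP replicate 1 none of the 4 TEAD genes was called (0.0551 to 0.202). Wwtr1, which encodes the YAP relative TAZ, had a difference of 0.75 ± 0.44 and was not called. Of the kinase cascade 3 of 13 were called for SM (2 after median scaling, without Lats2) and none for HP, with a median of 0.44 (0.1 after median scaling). Lats2, a core kinase, was one of the 3, at 2.14, 2.70 and 1.91 in SM and -0.02 and 0.17 in HP (log2 difference 2.18 ± 0.46 (SE), adjusted p = 0.00371, and 0.0644 without HP replicate 1).

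Known TEAD target genes were higher in SM in 10 of 14 cases and in HP in none, with a median of 3.07, and in 7 cases without SM replicate 2 or after median scaling. Ccn1, a secreted matrix protein, was at 4.72, 5.81 and 5.22 in SM and 1.75 and 2.59 in HP. Ccn2, connective tissue growth factor, was at 5.42, 7.14 and 5.23 in SM and 0.12 and 3.69 in HP. SM replicate 2 was the highest SM array and HP replicate 2 the higher HP array in both, and the differences were 3.08 ± 0.74 (adjusted p = 0.00935) and 4.03 ± 1.11 (0.0234). Without SM replicate 2 the call of Ccn2 was lost (0.0835), and without HP replicate 1 both were (0.158 and 0.493). Gli2, the transcription factor of hedgehog signalling, was not above background in HP and at least 17.9-fold higher in SM (adjusted p = 0.000526).
Ccn1, chr3:145649986-145650235, minus strand: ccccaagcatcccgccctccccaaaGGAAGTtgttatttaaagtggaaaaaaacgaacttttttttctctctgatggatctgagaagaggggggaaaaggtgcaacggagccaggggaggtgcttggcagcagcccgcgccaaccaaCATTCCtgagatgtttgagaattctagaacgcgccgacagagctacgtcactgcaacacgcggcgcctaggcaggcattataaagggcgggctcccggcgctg
The Ccn1 window, shown as that of a TEAD target, holds the TEAD letters on the other strand 103 bases before the start site and GGAAGT 225 bases before it.

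Of the genes that the study names as dependent on AP-1 in vascular cells, 19 were listed, among them the cell cycle inhibitors Cdkn2a and Cdkn2b, with Tgfb2 taken for a TGFβ ligand that the study names without a number (Tgfb1 was called higher in HP). All 19 were called higher in SM, with a median of 3.49, but 17 without SM replicate 2 and 15 after median scaling. These genes were picked by the study from these very arrays, and their count is not independent evidence of a direction. Myo1e, a membrane myosin, had levels of 1.14, 0.84 and 1.54 in SM and -2.73 and -1.88 in HP (log2 difference 3.48 ± 0.41 (SE), adjusted p = 2.84e-05). For Axl, the GAS6 receptor, the levels were 2.81, 3.06 and 2.99 in SM and -2.10 and -0.66 in HP (log2 difference 4.33 ± 0.66 (SE), adjusted p = 0.000212). In both the SM arrays lay within 1 log2 unit of each other.

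Hematopoietic transcription factors were the mirror of this, with 15 of 33 called higher in HP, 2 higher in SM (none after median scaling) and a median of -2.57. Runx1, required for the release of blood cells from endothelium, was at 0.98, 1.50 and 1.20 in SM and 4.21 and 4.90 in HP. The arrays did not overlap (log2 difference -3.33 ± 0.60 (SE), adjusted p = 0.001), or 10.1-fold. Gfi1b, a repressor of endothelial genes downstream of RUNX1, was at 0.18, -0.47 and 0.39 in SM and 4.69 and 5.02 in HP (log2 difference -4.82 ± 0.71 (SE), adjusted p = 0.000171). Myb, needed by definitive progenitors, was at -0.70, -1.25 and -1.20 in SM and 4.52 and 4.82 in HP (log2 difference -5.72 ± 0.83 (SE), adjusted p = 0.000139). In all 3 genes the SM arrays, replicate 2 included, lay within 1 log2 unit of each other.

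Of factors of single blood lineages, 2 of 5 erythroid and megakaryocytic ones and 5 of 8 myeloid and lymphoid ones were called for HP, and Klf1, of red cells, was not (difference -0.36, adjusted p = 0.942). Spi1, which encodes PU.1, the myeloid master factor, was above background on no SM array, stood at 1.74 and 0.86 in HP, and was at least 57.4-fold higher there (adjusted p = 3.44e-05). Nfe2, of megakaryocytes and red cells, was at 1.13, 0.82 and 1.40 in SM and 6.12 and 6.14 in HP (log2 difference -5.02 ± 0.62 (SE), adjusted p = 3.72e-05). Ikzf1, Ikaros of lymphoid cells, was 56-fold and Cebpa, of granulocytes, 14.8-fold higher in HP (adjusted p 0.000137 and 0.000163), with a log2 difference of -2.24 by the second Ikzf1 probe. Neither was above background on every array of both groups. Under the alternatives the log2 difference lay between -6.32 and -3.75 for Ikzf1 and between -4.57 and -1.8 for Cebpa. Irf8, of macrophages and dendritic cells, had levels of -4.62, -1.68 and -3.50 in SM and 1.44 and 0.80 in HP (log2 difference -4.39 ± 0.63 (SE), adjusted p = 0.000128).

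Some blood factors were not called or lost their call. Tal1, which opens the blood program in mesoderm, was at 1.54, 3.79 and 1.64 in SM and 5.00 and 5.22 in HP. The arrays did not overlap, SM replicate 2 was closest to HP, and the adjusted p was 0.0516. The gene was called under 10 of 19 alternatives, among them the fit without SM replicate 2 (difference -3.52, adjusted p 0.0132). Gata1, of red cells, was the reverse case, at 1.75, -0.28 and 1.97 in SM and 3.57 and 3.87 in HP. Its call (adjusted p = 0.0369) was lost without SM replicate 2 (0.153) and without either HP array (0.17 and 0.246), and also after quantile normalization (0.0861), median scaling (0.0771), without the filter (0.0578) and in a fit of only the groups compared (0.0979). Hoxb4 and Gata3 were the 2 factors called higher in SM, with differences of 1.95 ± 0.50 and 2.01 ± 0.47 (adjusted p 0.014 and 0.00758). Their arrays did not overlap, at 1.58, 1.87 and 1.12 in SM and -0.85 and 0.01 in HP for Hoxb4, but neither was called without HP replicate 1 (0.253 and 0.139).

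Among the gene lists, the signalling and cytoskeletal machinery of white blood cells had the largest share called for HP. In it 27 of 34 genes were called higher in HP and none in SM, with a median of -4.41. Vav1, the exchange factor that activates Rac, was at -2.41, -1.06 and -2.35 in SM and 4.16 and 4.84 in HP. No SM array came near an HP array (log2 difference -6.44 ± 0.84 (SE), adjusted p = 5.59e-05), or 86.6-fold. Rac2, the Rac of blood cells, was at -3.30, -2.12 and -2.53 in SM and 3.56 and 2.78 in HP (log2 difference -5.82 ± 0.68 (SE), adjusted p = 2.5e-05). Coro1a, which coats leukocyte actin, was 93-fold and Was, the Wiskott-Aldrich actin nucleator, 26.4-fold higher in HP (adjusted p 5.78e-07 and 3.67e-05). Ptpn6, the phosphatase SHP1, was 15.2-fold higher in HP (adjusted p = 1.97e-05). Ptprc, CD45, was at -3.99, -3.30 and -2.98 in SM and 0.49 and -1.04 in HP (log2 difference -3.15 ± 0.68 (SE), adjusted p = 0.00433), and was not called without HP replicate 1 (0.147). Arhgdib, which holds small GTPases inactive, had levels of 4.25, 5.91 and 3.83 in SM and 6.16 and 6.96 in HP, with SM replicate 2 nearest to HP. It was not called (log2 difference -1.90 ± 0.64 (SE), adjusted p = 0.0754), and was called under 9 of 19 alternatives, among them the fit without SM replicate 2 (0.0118).
Vav1, chr17:57278850-57279099, plus strand: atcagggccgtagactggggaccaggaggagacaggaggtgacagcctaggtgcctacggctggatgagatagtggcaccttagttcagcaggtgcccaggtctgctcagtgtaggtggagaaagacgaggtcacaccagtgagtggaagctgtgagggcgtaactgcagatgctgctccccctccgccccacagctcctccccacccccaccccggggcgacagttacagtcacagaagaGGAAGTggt
The Vav1 window, shown for the white blood cell genes, holds the ETS letters GGAAGT 9 bases before the start site.

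Cytokine receptors were called higher in HP in 9 of 15 cases and in SM in 1, Cxcr4 (0 after normexp background correction). Csf2rb, the common chain for IL-3, IL-5 and GM-CSF, was at -1.24, -0.38 and -1.02 in SM and 5.41 and 5.14 in HP (log2 difference -6.16 ± 0.53 (SE), adjusted p = 1.08e-06), and -2.74 by its second probe. Il2rg, the common γ chain, was 20.8-fold higher in HP (adjusted p = 0.00124). Flt3, the receptor of lymphoid-primed progenitors, was not higher in HP, at -4.51, -3.12 and -3.22 in SM and -3.88 and -5.52 in HP, with 1 of the HP arrays above background.

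Myeloid effector genes were called for HP in 10 of 19 cases and for SM in none. Mpo, myeloperoxidase of the granulocyte lineage, had the largest difference of any gene measured above background on all 5 arrays in the HP direction. Its levels were -0.57, -1.04 and -1.01 in SM and 6.24 and 6.54 in HP, a difference of -7.27 ± 0.67, or 154-fold (adjusted p = 2.03e-06). Fcer1g and Tyrobp, the adaptors of activating immune receptors, had differences of -6.51 ± 0.66 and -6.54 ± 0.57 (adjusted p 5.67e-06 and 1.1e-06). Csf1r, the M-CSF receptor, was at 1.75, 1.30 and 2.11 in SM and 2.99 and 3.77 in HP and was not called (log2 difference -1.66 ± 0.84 (SE), adjusted p = 0.322), nor was Lyz2, lysozyme (adjusted p = 0.0583), which was called for HP under 6 of 18 alternatives.

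Megakaryocyte and platelet genes were called for HP in 10 of 18 cases and for SM in none, with a median of -3.1 (-1.8 after normexp background correction). Gp9, of the von Willebrand factor receptor, was at -3.76, -3.77 and -4.23 in SM, above background on 2 arrays, and at 0.43 and 0.68 in HP (log2 difference -4.47 ± 0.63 (SE), adjusted p = 0.000103). Plek, the platelet protein pleckstrin, was 112-fold higher in HP (adjusted p = 1.1e-06). Pf4, platelet factor 4, was 29.4-fold higher (adjusted p = 0.00465, and 0.0577 without HP replicate 1).
Gp9, chr6:87777820-87778069, plus strand: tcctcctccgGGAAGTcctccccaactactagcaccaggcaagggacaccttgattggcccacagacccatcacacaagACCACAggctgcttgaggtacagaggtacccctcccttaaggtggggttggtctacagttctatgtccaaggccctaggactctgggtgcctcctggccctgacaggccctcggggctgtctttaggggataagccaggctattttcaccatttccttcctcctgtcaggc
The Gp9 window, shown for the platelet genes, holds GGAAGT 240 bases and, on the other strand, the RUNX letters TGTGGT 171 bases before the start site.

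Of 22 erythroid genes tested 1 was called for HP, Car2 (carbonic anhydrase, 4.15-fold, adjusted p = 0.0134, and 0.124 and 0.0921 with 1 HP array left), against 3.32% of all genes tested. None was called for SM (2 without SM replicate 2), and the median was 0.21 (-0.13 after median scaling). Hbb-bh1, an embryonic β-like globin, was at 8.46, 5.81 and 7.83 in SM and 7.19 and 8.03 in HP. Hbb-y, the other embryonic one, was at 7.07, 2.92 and 5.95 in SM and 2.37 and 2.96 in HP. SM replicate 2 was the lowest SM array in both, the groups overlapped, and without that array Hbb-y was called higher in SM (3.84, adjusted p 0.0135). Across the 23 erythroid genes on the array the summed linear signal was 715, 165 and 510 on the SM arrays and 322 and 509 on the HP arrays.

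Over all genes, inside and outside the lists, those above background on all 5 arrays with the largest SM differences were Cdh1, Adamts15, Dppa5a, Col3a1, Rbms3, Sulf1, Lypd6, Megf10, Twist2 and Actg2, from 5.97 down to 5.27, although second probes gave 0.77 for Lypd6, 2.06 for Rbms3 and 3.47 for Sulf1. Adamts15, a protease of the matrix, was at 3.03, -0.02 and 2.96 in SM and -3.71 and -3.66 in HP (log2 difference 5.68 ± 1.17 (SE), adjusted p = 0.00301). Sulf1, which trims heparan sulphate, was at 3.20, 1.57 and 3.69 in SM and -3.67 and -1.63 in HP (log2 difference 5.47 ± 0.67 (SE), adjusted p = 3.69e-05). SM replicate 2 was the lowest SM array in all 10 of these genes. The 10 largest in HP were Mpo, Ccl9, Hp, Plek, Ccl6, Myo1f, Coro1a, Tyrobp, Arhgap9 and Wdfy4. The chemokine Ccl9 was at -1.77, -2.38 and -1.27 in SM and 5.38 and 5.37 in HP, and haptoglobin, Hp, at -3.29, -2.67 and -2.92 in SM and 4.22 and 4.17 in HP, differences of -7.18 ± 0.96 and -7.16 ± 0.70 (adjusted p 6.98e-05 and 3.45e-06).

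Genes above background on one side alone were ranked by their bounds. Evi2a, a membrane protein gene of blood cells, was above background on no SM array, stood at 2.29 and 2.82 in HP, and was at least 137-fold higher there (adjusted p = 3.36e-08, the smallest of the comparison). Rgs18, which restrains G protein signalling in platelets, was at least 68.3-fold higher in HP (adjusted p = 3.36e-08), and Bcl2a1d, of an anti-apoptotic BCL2 family with near-identical copies that a probe may not tell apart, at least 54.1-fold. The SM side was led, after lumican, by Kif26b, a kinesin, at least 36.4-fold higher (adjusted p = 6.5e-05). Its fitted log2 difference fell to 2.55 under the alternatives. Kif26b was followed by Hoxc9, at least 32.6-fold (adjusted p = 0.00335). For Hoxc9 normexp background correction and the authors' processed values gave log2 differences of 2.64 and 3.29 and no call (0.0691 and 0.0612). Its fitted log2 difference was 5.33 without HP replicate 1 and reached 7.13 under the alternatives. Rgs5, a marker of pericytes, was at -0.13, -1.58 and -0.21 in SM and at least 21.6-fold higher there (adjusted p = 7.94e-06), with a fitted log2 difference down to 2.1 under the alternatives. The 2 RGS genes thus had the reverse pattern across the same 5 arrays.

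Markers of other cell types were also read in the SM arrays. Of 11 mesothelial and epithelial markers 8 were called higher in SM (3 after normexp background correction) and none in HP, and 5 of 12 on the array were above background on neither HP array. Cdh1, E-cadherin of epithelia, was at 3.02, -0.56 and 3.35 in SM and -3.72 and -4.34 in HP (log2 difference 5.97 ± 1.11 (SE), adjusted p = 0.00121). SM replicate 2 was more than 3 log2 units below the other SM arrays. Krt18, a keratin of simple epithelia, was instead even, at 8.95, 8.82 and 8.18 in SM and 4.24 and 6.50 in HP (log2 difference 3.28 ± 0.67 (SE), adjusted p = 0.00279, and 0.147 without HP replicate 1). Msln, mesothelin, was at -2.24, -2.69 and -2.36 in SM and at least 6.24-fold higher there (adjusted p = 7.15e-05), but normexp background correction gave a log2 difference of 1.07 and no call (0.366). The summed linear signal of the list was 678, 479 and 493 in SM and 21.8 and 101 in HP.

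Pluripotency markers were called for SM in 4 of 10 cases (1 after median scaling or normexp background correction) and for HP in none. Dppa5a, of ESCs, was at 4.26, -2.68 and 3.70 in SM and -4.18 and -3.44 in HP (log2 difference 5.57 ± 1.50 (SE), adjusted p = 0.02). SM replicate 2 lay more than 6 log2 units below the others, and of the fits that left out 1 array the call held only in the one without SM replicate 2 (0.0933 to 0.183 in the others), and it was also lost after quantile normalization (0.0997), median scaling (0.0525) and in the authors' processed values (0.0659). Zfp42 (REX1) was not above background in HP and at least 14.3-fold higher in SM (adjusted p = 0.000148), but normexp background correction gave a log2 difference of 1.69 and no call (0.0755). Cardiac markers were called for SM in 6 of 13 cases (3 after median scaling or normexp background correction), but in 2 without SM replicate 2, on which their summed linear signal was 257 against 76 and 78.7 on the other SM arrays. Tnnt2, cardiac troponin T, was at 1.91, 4.08 and 1.91 in SM and -1.55 and 1.10 in HP (log2 difference 2.86 ± 0.84 (SE), adjusted p = 0.0354), with adjusted p of 0.144 without SM replicate 2, 0.0996 after median scaling and 0.567 without HP replicate 1. Actc1, the actin of heart and early muscle, was at 5.78, 7.08 and 5.76 in SM and -0.64 and 3.62 in HP (log2 difference 4.71 ± 1.14 (SE), adjusted p = 0.00955, and 0.361 without HP replicate 1). The part that cells other than smooth muscle played in the SM calls was not tested.

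Endothelial markers were called for HP in 2 of 21 cases and for SM in none, and in 5 without SM replicate 2. Tie1, a relative of TIE2, was at -2.11, 0.54 and -0.91 in SM and 4.09 and 3.04 in HP (log2 difference -4.39 ± 0.94 (SE), adjusted p = 0.00419, and 0.0928 without HP replicate 1). Eng, endoglin, was at -0.79, 0.48 and -0.31 in SM and 2.39 and 2.52 in HP (log2 difference -2.66 ± 0.64 (SE), adjusted p = 0.00899), with adjusted p of 0.0805 and 0.0847 when only 1 HP array remained. Cdh5, whose levels are given above, became a call for HP without SM replicate 2 (-4.26, adjusted p 0.0274) and with array quality weights.

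Fibroblast and feeder markers, relevant because ESCs are grown on feeder cells, were called for SM in 7 of 10 cases and for HP in 1. Cdh11, a mesenchymal cadherin, was at 1.47, -1.53 and -0.16 in SM, not above background in HP, and at least 29.3-fold higher in SM by its brightest probe (adjusted p = 0.000159), while its second probe gave a log2 difference of 2.96. S100a4 was the gene called for HP (3.83-fold, adjusted p = 0.0352), and was not called without any 1 of SM replicate 1, SM replicate 3 or the HP arrays (0.0715 to 0.434). Of 24 Hox genes tested 9 were called for SM (3 after normexp background correction, 4 in the authors' processed values) and none for HP. Of the 39 on the array 20 were above background on no HP array, so tested members could have passed the filter through SM alone.

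Genes of DNA replication and mitosis did not pass the test in any of 20 cases (1 for HP without SM replicate 2, 2 after quantile normalization), with a median of -0.9. Mki67 was lower in every SM array, at 4.91, 5.14 and 4.69 in SM and 5.71 and 6.26 in HP, with a difference of -1.07 ± 0.44 (adjusted p = 0.175). Of the cyclin-dependent kinase inhibitors and D cyclins 3 of 10 were called for SM (2 without SM replicate 2 or after median scaling). Cdkn1c, p57, was at 5.68, 3.70 and 6.57 in SM and 2.17 and 1.54 in HP (log2 difference 3.46 ± 0.74 (SE), adjusted p = 0.00418, and 0.0681 without HP replicate 2). Cdkn2b, p15, was at 2.49, 2.41 and 0.29 in SM and -5.61 and -0.50 in HP, above background on 1 HP array. The HP arrays were far apart (log2 difference 4.79 ± 1.09 (SE), adjusted p = 0.00644). Without HP replicate 1 the log2 difference of Cdkn2b was 2.23. Cdkn1a, p21, was not called (log2 difference 0.93 ± 0.60 (SE), adjusted p = 0.517). With slide as a fixed or random block or scan day as a block, Mki67 was called for HP and Cdkn1a for SM. Interferon response genes were called for HP in 5 of 19 cases (3 without SM replicate 2 or after median scaling) and for SM in none, led by Rsad2 (8.42-fold, adjusted p = 0.00823, and 0.118 without HP replicate 2) and Usp18 (7.47-fold, adjusted p = 0.00298, and 0.0801 without HP replicate 2).

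HE1 and HE2 are the stages between the FLK1+ cells and HP. Their arrays entered the fit through the shared estimate of the spread, and their levels did not enter the difference between SM and HP. The median level of the 1643 SM genes was 0.51, 0.03 and 0.61 on the SM arrays, -0.61 and -1.13 in HE1, -2.84 and -2.98 in HE2 and -3.17 and -2.48 in HP. For 1508 of them (91.8%) the HE2 mean lay nearer to HP than to SM, and for 593 (36.1%) the HE1 mean did. The 840 HP genes had medians of -2.17, -1.38 and -1.96 in SM, -1.04 and -0.81 in HE1, 0.27 and 0.77 in HE2 and 1.33 and 1.58 in HP. For 613 of these (73%) the HE2 mean was nearer to HP, and for 168 (20%) the HE1 mean was. These genes were chosen for their difference between SM and HP, and the shares over all genes tested were not computed. The HE1, HE2 and HP arrays were on slides 1 and 3, whereas SM replicate 1 was on slide 4. HE2 replicate 1 had the lowest 75th percentile of signal of all arrays, 73.2, against 603 on HE2 replicate 2.

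Levels of single genes in HE1 and HE2 were set beside those in SM and HP. SM cells are not a stage on the path from HE1 to HP. The paper cites lineage tracing in which SM and HE cells arose separately. Runx1 was at 0.25 and -0.35 in HE1 and 4.57 and 3.60 in HE2, so HE1 lay below the SM arrays and HE2 beside HP. Kit was already high in HE1 (3.47 and 3.83) and HE2 (3.94 and 4.39). Hand1 was at 2.21 and -0.79 in HE1, with the replicates far apart, and at -4.30 and -4.37 in HE2, below both HP arrays. Yap1 was near the SM level in HE1 (4.92 and 4.82) and was at 1.85 and 3.13 in HE2. Spi1 was at -5.31 and -5.55 in HE1, above background on neither array, and at -0.01 and -0.31 in HE2, whereas Coro1a was at -1.70 and -1.28 in HE1, 1.91 and 3.31 in HE2 and 5.23 and 5.77 in HP. These levels are a description, with no test between the stages.

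**Figure D3:**
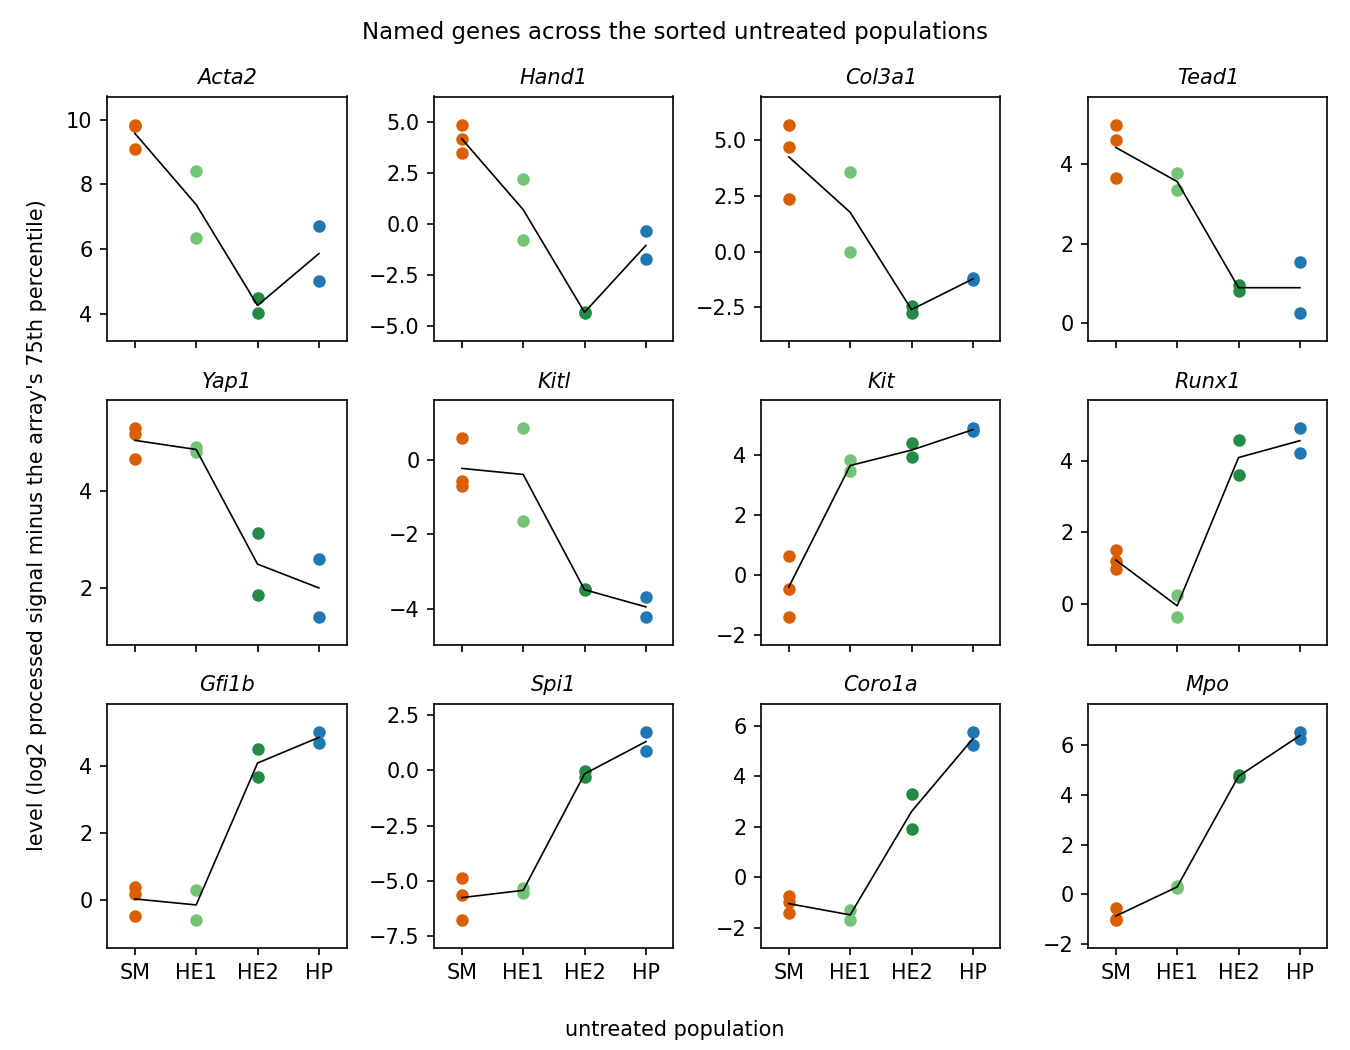
Level of 12 genes (vertical axis, log2 of processed signal, less the 75th percentile of its array) on each untreated SM, HE1, HE2 and HP array (horizontal axis; 1 point per array, lines join group means). The lines do not show a course in time, since SM is not a stage before HE1. Acta2, Hand1, Col3a1 and Tead1 are lower in HE2 than in SM, Runx1, Gfi1b and Coro1a climb between HE1 and HP, and Yap1 is high in both SM and HE1.

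The same cell types were also measured after DOX, on 4 separate arrays. DOX-treated SM replicate 2 was hybridised on slide 3, like untreated SM replicate 2. In DOX-treated SM replicates 1 and 2, Cdh5 was at -1.38 and 4.74, Esam at -2.51 and 3.47 and Dppa5a at 3.35 and -2.08. The counts below include DOX-treated SM replicate 2, and the part of this pattern in them was not tested. Of the 1643 SM genes 1623 had a difference of the same sign between DOX-treated SM and HP cells, and in 1467 (89.3%) the arrays did not overlap in that direction, against 15.6% of all genes tested. Of the 840 HP genes 824 kept their sign and 759 (90.4%) did not overlap, against 26% of all genes. The median difference was 2.55 for the SM genes and -2.32 for the HP genes in these arrays. Acta2 was at 8.94 and 9.64 in DOX-treated SM and 5.50 and 6.96 in DOX-treated HP, Kit at -1.37 and 0.86 and 4.95 and 5.40, and Vav1 at -4.26 and -0.13 and 3.35 and 3.84.

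Whether the difference between SM and HP itself changed with DOX was tested as an interaction. In limma 0 of 26483 genes were called (0%), with a smallest adjusted p of 0.288 and 591 genes at an unadjusted p below 0.05. A difference that misses this test is not shown to be equal with and without DOX.

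**Figure D4:**
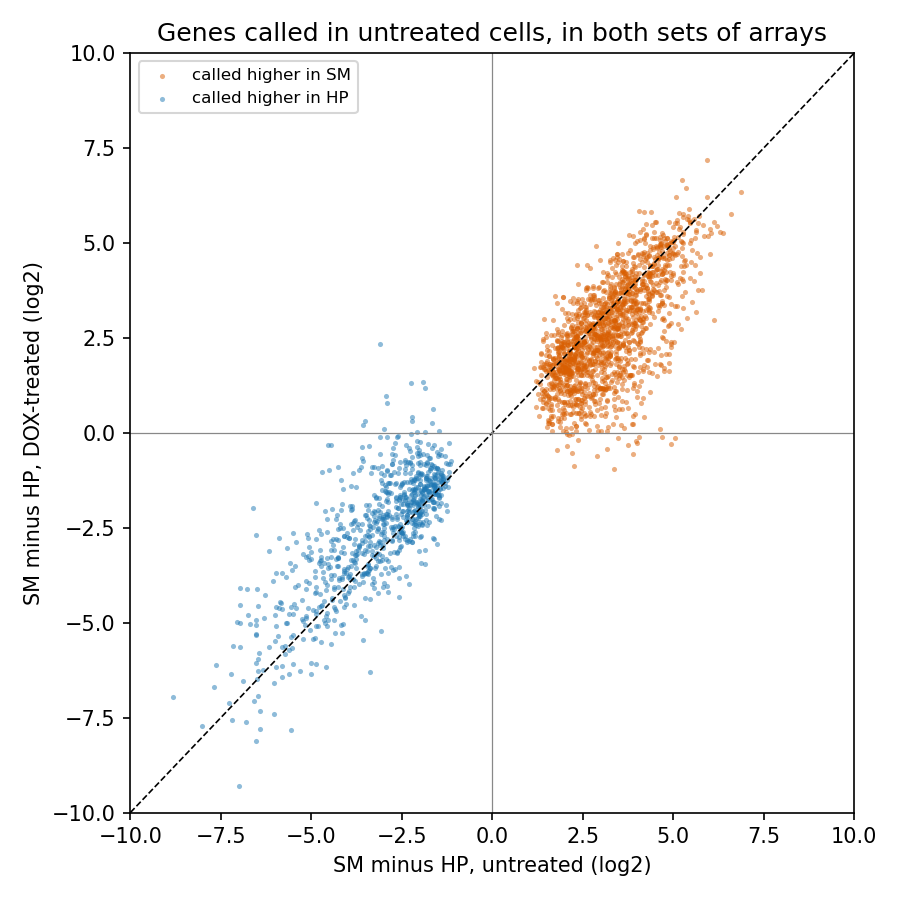
Difference between SM and HP in the DOX-treated arrays (vertical axis, log2) against that in the untreated arrays (horizontal axis, log2) for the genes called in the untreated arrays and measured in both (orange called higher in SM, blue higher in HP; dashed line, equal differences). The genes were chosen on the horizontal axis; 1623 of the SM genes and 824 of the HP genes lie on the same side of 0 in both.

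Short motifs were counted in the 250 bases before the start sites of the called genes, on both strands, as a description with no test. The letters were GGAATG for TEAD, TGANTCA for AP-1, GGAAGT for ETS, TGTGGT for RUNX and AGATAA for GATA. For SRF they were the CArG box, CCWWWWWWGG with W being A or T. Only exact matches were counted. GGAAGT shares its first letters GGAA with GGAATG. RefSeq promoters were found for 1002 of the SM genes (1333 windows) and 563 of the HP genes (716 windows). GGAAGT was in 26.96% of the HP windows, 13.2% of the SM windows, 21.93% of the windows of all genes tested and 19.74% of all windows in the table. TGTGGT was in 15.08% of the HP windows, 8.03% of the SM windows and 11.12% of those of genes tested (14.05% of all). GGAATG was in 14.63% of the SM windows and 11.45% of the HP windows, against 11.24% of those of genes tested (12.64% of all). The exact CArG box was rare, in 2.25% of the SM windows (30 windows), 0.84% of the HP windows (6) and 1.34% of those of genes tested (1.47% of all). AGATAA was in 5.78% of the SM and 9.22% of the HP windows (6.9% of genes tested, 9.99% of all), and TGANTCA in 5.55% and 6.98% (4.91% of genes tested, 6.75% of all). In percentage points the ETS and RUNX letters differed most between these windows, with the higher share on the HP side.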

How the data were processed

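RNA of 27 samples was measured on 1-colour Agilent mouse arrays, of which 3 SM and 2 HP arrays are compared here. The deposited values are spot intensities, processed signals of Agilent Feature Extraction that had been background-subtracted but not scaled between arrays. Flags for outlier spots and for probes well above background came with it (deposited, coded 0 or 1). The authors' own table holds log2 values after their between-array normalization with limma.

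Control spots and outlier spots were left out, spots of a probe were averaged, log2 was taken and the 75th percentile of each array subtracted. Each gene or transcript (37208, of which 20145 had a symbol in RefSeq's GRCm38.p6 table) was represented by its brightest probe. A gene was tested when it was well above background on all SM or all HP arrays. Means of 13 groups were fitted with limma 3.58.1 (lmFit, eBayes) in R 4.3.3 (residual degrees of freedom 14, prior 4.37), and p-values were adjusted by the Benjamini-Hochberg method over all genes tested. Calls required a difference of 2-fold or more and an adjusted p under 0.05. A lower bound of a fold change sets the brighter mean against, on each array of the dimmer group, the higher of the gene's signal and the lowest signal of any probe well above background there. Python 3.11.15 with pandas 2.3.3, numpy 2.4.6 and matplotlib 3.10.9 and the R package data.table (version 1.17.8) were used. The fit was tested on simulated data, and a gene that was not called is not shown to be equal in the groups. No array was a copy of another (0 identical pairs), no spot was saturated (0 spots), and the number of arrays limits the precision.

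Samples were grouped by cell type and DOX label. Alternatives were normexp background correction with an offset of 50, quantile and median scaling, the authors' values, other filters and probe choices, slide, scan day and replicate blocks, variance models, other thresholds and leaving out each array. The arrays, gene lists and named genes were chosen with earlier results of these data known. Named genes are the sorting markers, key members of each list, up to 3 called members with the largest difference in each direction per list, and the 10 largest differences and 10 largest bounds in each direction among called genes whose arrays did not overlap, and not all of them are described. Samples were not paired by replicate number. Deviations of SM and HP arrays of the same number correlated at -0.271 and 0.081. With 2 HP arrays the HP deviations mirror each other, so these values cannot show that pairing was absent. SM replicate 3 and HP replicate 1, which share slide 1, correlated at 0.39. SM replicate 2 and HP replicate 2, which share slide 3, gave the 0.081. Over all 27 arrays the consensus correlation within slides was 0.457, and the main fit had no slide term. Col6a3, Col12a1, Hbb-b1, Ahsp, Cd68 and Atf7 had no matching symbol.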

Additional observations from a re-analysis of the deposited data

How the results depend on the processing

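Beside the 1643 genes called higher in SM and 840 higher in HP cells, normexp background correction called 1063 and 702, median scaling 1027 and 903, quantile normalization 1611 and 1220, and the authors' processed values 1570 and 1235. The share of calls higher in SM cells was 66.2% and fell to 53.2% under median scaling, which moved the median of all genes from -0.14 to -0.49. Requiring detection in both groups left 995 and 540 calls, an adjusted p under 0.01 left 1070 and 473, and a fit of only the groups compared left 1139 and 469. More genes were called with slide as a fixed block (2255 and 1337), slide as a random block (2435 and 1480), scan day as a fixed block (2274 and 1470) and array quality weights (2051 and 1420). The replicate block gave 1512 and 684 calls. Leaving out 1 array gave between 673 and 1531 calls higher in SM and between 369 and 974 higher in HP cells, the fewest in SM without HP replicate 1 and the fewest in HP without HP replicate 2. The 0 genes called for a changed difference with DOX became 5 under quantile normalization, 8 with the authors' values, 3 with slide as a random block and 1 with scan day as a fixed block, and between 0 and 1 when 1 array was left out. The cause was not tested.

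For 131 genes followed through the alternatives and arrays left out, 2277 values kept their direction and their side of the threshold, 115 lost the call, 42 gained it and 28 reversed. The reversals were in genes not called in SM against HP cells. Jun became 0.08 under quantile normalization, 0.04 with the authors' values, 0.12 with slide fixed, 0.05 with slide random, 0.08 with scan day and 0.03 with the replicate block, and lay between -0.46 and 0.08 with 1 array left out. Tek became 0.08 with slide fixed and 0.09 with the replicate block, and lay between -1.12 and 0.88 with 1 array left out. Smtn became 0.11 with slide fixed and lay between -0.56 and 0.07 with 1 array left out. Srf became -0.22 under median scaling and -0.19 with array weights, and lay between -0.35 and 0.59 with 1 array left out. With array weights and, in brackets, over the fits with 1 array left out, Sox7 became -0.54 (-1.38 to 1.64), Hbb-bh1 0.15 (-0.79 to 0.54) and Klf1 0.15 (-0.89 to 0.40). Itgam became -0.13 with the mean of all probes. For these the cause was not tested. Of 460 called genes with several probes above background, 14 had a probe of opposite sign. Genes not well above background on any array of a group have only a bound. Where only some arrays of a group were above background, the printed difference includes signal below it. The 2 or 3 arrays a group limit the precision.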
